A study of Mus musculus with 12 samples.

Results

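The podocyte transcription factors described here are Wt1, Tcf21, Lmx1b, Foxc1, Foxc2 and Dach1. They were chosen by gene symbol, and all 6 were found among the 26264 symbols of the count tables. All 6 were also among the 17002 genes with enough counts to be tested. RNA was sequenced from glomeruli of male mice of the substrains BALB/cAJcl (spelled BALB/cAjcl in the labels, AJcl here) and BALB/cByJcl (ByJcl), 8 weeks old, in 12 libraries with 3 in each of 4 groups. The 2 baseline groups were untreated. The 2 Day 5 groups had received adriamycin (ADR, doxorubicin), an anthracycline that injures podocytes in BALB/c mice, once at 10 mg/kg by retro-orbital intravenous injection, and the kidneys were taken 5 days later. The labels and the study call the baseline mice untreated, although their column headers read Ctrl and the treatment protocol also speaks of saline-injected controls. If the baseline mice had no injection, the effects of ADR and of the injection cannot be told apart. Glomeruli were captured with magnetic beads perfused into the kidney and still hold endothelial, mesangial and some tubular cells. The labels number the replicates without saying that each library came from its own mouse, so p-values measure the spread between these libraries. Total counts per library were 42198416 to 54687045.

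Podocytes are the epithelial cells that wrap the glomerular capillaries and carry the slit diaphragm, the last filter that holds back plasma protein. Their identity depends on a small group of transcription factors that act together on slit diaphragm, cytoskeletal and basement membrane genes. WT1 is a zinc finger protein whose loss causes glomerular disease, and LMX1B is a LIM homeodomain protein mutated in nail-patella syndrome. FOXC1 and FOXC2 are closely related forkhead proteins, TCF21 is a basic helix-loop-helix protein that binds DNA as a dimer, and DACH1 is a member of the dachshund family of transcriptional cofactors.

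On GRCm39 with the GENCODE M39 annotation, Wt1 (ENSMUSG00000016458.17) lay at chr2:104956625-105003961 on the plus strand and Lmx1b (ENSMUSG00000038765.16) at chr2:33450977-33531093 on the minus strand. Foxc1 (ENSMUSG00000050295.5) lay at chr13:31990616-31996459 and Foxc2 (ENSMUSG00000046714.8) at chr8:121842910-121845634, both on the plus strand and both with 1 exon. Tcf21 (ENSMUSG00000045680.10) lay at chr10:22692803-22696073 and Dach1 (ENSMUSG00000055639.17) at chr14:98024289-98407201, both on the minus strand. The antisense lncRNA Wt1os overlapped 246 bp of Wt1 exons, or 3.82% of their length. The libraries were strand-specific, but the strand setting of the counting is not given in the sources used here, so reads from the overlap cannot be assigned to either gene. A further antisense lncRNA, Gm10824, overlapped 505 bp of Tcf21 exons, or 18.5%, and was not among the counted symbols.

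The RefSeq promoter table on GRCm38.p6 held entries for 4 of the 6 genes, Lmx1b, Tcf21, Foxc1 and Dach1. Their 250 bases before the start of transcription are shown because Foxc1 alone of the 6 was not called at Day 5 in ByJcl, as described below. The windows were chr2:33641099-33641348 (minus strand) for Lmx1b, chr10:22820144-22820393 (minus) for Tcf21, chr14:98169766-98170015 (minus) for Dach1 and chr13:31806396-31806645 (plus) for Foxc1. Capitals mark every match on either strand to an E-box (CANNTG), a forkhead core (TAAACA), a core of the LMX1B-bound FLAT element (TAATTA), a WT1/EGR site (GCGGGGGCG) or a CCAAT box (CCAAT).
Foxc1: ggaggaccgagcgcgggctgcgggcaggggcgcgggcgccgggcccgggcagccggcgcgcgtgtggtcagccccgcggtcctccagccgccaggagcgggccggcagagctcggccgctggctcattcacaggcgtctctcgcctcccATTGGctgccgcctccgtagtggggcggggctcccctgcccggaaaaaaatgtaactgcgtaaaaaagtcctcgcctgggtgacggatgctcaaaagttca
Lmx1b: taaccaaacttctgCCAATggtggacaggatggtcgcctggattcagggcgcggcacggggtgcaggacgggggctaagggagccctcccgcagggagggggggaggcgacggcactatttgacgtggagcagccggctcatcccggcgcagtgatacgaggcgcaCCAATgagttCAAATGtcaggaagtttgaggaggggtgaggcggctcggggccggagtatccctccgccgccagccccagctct
Dach1: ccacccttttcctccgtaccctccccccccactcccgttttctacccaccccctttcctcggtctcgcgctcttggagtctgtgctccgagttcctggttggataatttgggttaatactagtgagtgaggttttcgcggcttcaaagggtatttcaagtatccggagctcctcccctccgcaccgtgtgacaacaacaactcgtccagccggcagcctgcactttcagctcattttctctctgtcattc
Tcf21: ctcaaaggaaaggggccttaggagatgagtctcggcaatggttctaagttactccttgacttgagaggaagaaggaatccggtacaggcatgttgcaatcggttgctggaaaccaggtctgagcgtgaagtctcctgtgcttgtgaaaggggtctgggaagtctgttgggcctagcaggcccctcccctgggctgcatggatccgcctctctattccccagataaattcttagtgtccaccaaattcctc
The Foxc1 window had the highest GC content of the 4 at 70.8%, against 65.2% for Lmx1b, 54.8% for Dach1 and 52.4% for Tcf21, which equalled the median of all 32851 promoters. Foxc1 held 1 CCAAT box on the reverse strand, and Lmx1b held 2 CCAAT boxes and 1 E-box that did not overlap. A CCAAT box occurred in 33.8% of all promoter windows of this length and an E-box in 66.2%. None of the 4 windows held the forkhead core, the FLAT core or the WT1/EGR site, which occurred in 12%, 4.84% and 2.57% of all windows. These matches describe the letters of the windows only.

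Levels are given as CPM (counts scaled to a fixed library total) after TMM normalization, a scaling that equalizes the libraries on the bulk of the genes. The study excluded 1 library, AJcl Day 5 replicate 1 (A-ADR1), for reduced glomerular purity judged from podocyte and tubular marker RNA. It was likewise left out of the tests below, so AJcl had 2 libraries at Day 5, and its values are given beside them. The summed level of 8 proximal tubule markers was 8694 CPM in A-ADR1, against 494 to 5761 CPM in the other libraries, and the summed level of 14 podocyte structural genes was 11492 CPM. Podocyte RNA was abundant in every library, and none of the 14 structural genes was at 0 in any group.

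At baseline all 6 genes were detected in every library of both substrains. Exon lengths merge all annotated transcripts of a gene, so the order between genes depends on the annotation. Per kilobase of exon, Tcf21 was highest in AJcl at 101 ± 10.9 CPM per kb (SD, n = 3), followed by Wt1 at 70.4 ± 11.3 and Foxc2 at 67.5 ± 10.99. Lmx1b at 32.6 ± 6.89, Dach1 at 29.9 ± 3.22 and Foxc1 at 28.6 ± 3.79 CPM per kb formed the lower part of the order. Wt1 and Foxc2 lay within their spread of each other, as did Lmx1b, Dach1 and Foxc1. The order was the same in ByJcl at baseline, from Tcf21 at 107 ± 7.55 to Foxc1 at 30.4 ± 2.704 CPM per kb (SD, n = 3). At Day 5 in ByJcl the order became Tcf21 at 54.9 ± 14.2, Wt1 at 35.6 ± 4.13, Foxc1 at 31.4 ± 2.41, Foxc2 at 27.7 ± 8.02, Lmx1b at 21.3 ± 3.19 and Dach1 at 13.9 ± 1.93 CPM per kb. Foxc1 moved from last place to above Foxc2, Lmx1b and Dach1 in that order with nearly the same level, and did not differ from Wt1 or Foxc2 beyond the spread.

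The first comparison asked how the factors changed by Day 5 within each substrain. In ByJcl, 5 of the 6 genes fell: Foxc2 to 0.399 of its baseline level, Dach1 to 0.416, Wt1 to 0.470, Tcf21 to 0.523 and Lmx1b to 0.535. Foxc1 was at 1.05 times its baseline level and was not called. For these 5 genes every Day 5 library lay below every baseline library. Among all 17002 genes tested, 4.83% were called lower in this comparison (edgeR quasi-likelihood test, Benjamini-Hochberg adjusted p below 0.05), 10.6% were called in either direction, and 17.7% had Day 5 libraries that all lay below the baseline libraries. In bulk glomerular RNA, fewer podocytes and less RNA per podocyte cannot be told apart. The counts of baseline and of Day 5 come in 1 table each, and any effect of how each table was made cannot be told apart from that of ADR.

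**Figure D1:**
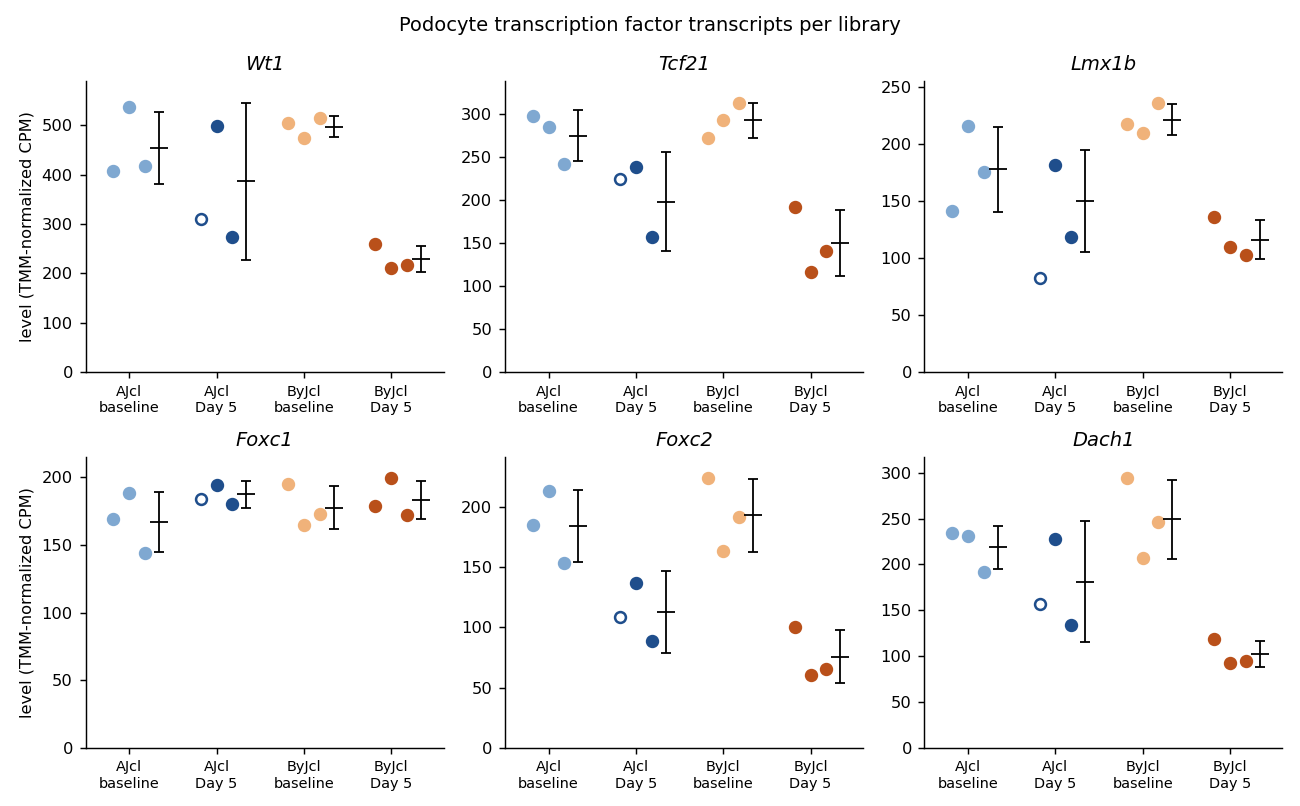
TMM-normalized CPM of each gene in every library (points) by substrain and time, with the group mean and SD (n = 3, or 2 for AJcl Day 5) as black bars. The open circle is A-ADR1, which is not in the mean. In ByJcl the Day 5 points lie below the baseline points for every gene except Foxc1, whose points overlap across all groups.

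Wt1 was the most abundant of the 6 by counts in ByJcl at baseline, with 504, 474 and 514 CPM in replicates 1, 2 and 3. At Day 5 the ByJcl libraries held 260, 211 and 217 CPM. The fall was larger than the spread between libraries, with a log2 fold change (log2FC) of -1.09 ± 0.20 (SE; adjusted p = 0.00756, edgeR). In AJcl, Wt1 was at 407, 537 and 417 CPM at baseline and at 499 and 274 CPM in the 2 Day 5 libraries. One AJcl library therefore lay within the baseline range and the other below it, and the log2FC of -0.22 ± 0.22 was not called (adjusted p = 0.815, edgeR). A-ADR1 held 310 CPM of Wt1, below all AJcl baseline libraries. Wt1os, which shares exonic bases with Wt1, fell in ByJcl too (log2FC -0.82, adjusted p = 0.0312, edgeR) and had a log2FC of 0.16 in AJcl. The ByJcl fall of Wt1os was not called in a fit of all 12 libraries (log2FC -0.81, adjusted p = 0.0906, edgeR).

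Lmx1b, which acts on slit diaphragm and collagen genes in podocytes, was at 218, 210 and 236 CPM in ByJcl at baseline and at 136, 110 and 103 CPM at Day 5. Its log2FC was -0.90 ± 0.19 (SE; adjusted p = 0.0140, edgeR). In AJcl it was at 141, 216 and 176 CPM at baseline and 182 and 119 CPM at Day 5, and these ranges overlapped (log2FC -0.23 ± 0.21, adjusted p = 0.796, edgeR). A-ADR1 had the lowest level of all libraries, 82.5 CPM. The Lmx1b call in ByJcl was the least secure of the 5, with an adjusted p of 0.0548 in a fit of all 12 libraries, where 2.79% of genes were called lower, and of 0.0647 without ByJcl Day 5 replicate 2 (edgeR).

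Of the paralogs Foxc1 and Foxc2, Foxc2 alone was called in ByJcl. Foxc2, a forkhead factor needed for podocyte development, was at 224, 164 and 192 CPM in ByJcl at baseline and at 101, 60.5 and 65.5 CPM at Day 5. Its log2FC of -1.32 ± 0.23 was the largest fall of the 6 (SE; adjusted p = 0.00654, edgeR). Its AJcl levels were 185, 213 and 154 CPM at baseline and 136 and 88.3 CPM at Day 5, so both Day 5 libraries lay below baseline, as did A-ADR1 at 109 CPM. Among all genes, 12.3% had AJcl Day 5 libraries, A-ADR1 left out, that all lay below baseline. This AJcl difference, log2FC -0.70 ± 0.26, was not called (adjusted p = 0.376, edgeR).

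Foxc1 was at 195, 165 and 173 CPM in ByJcl at baseline and at 179, 199 and 172 CPM at Day 5. The groups overlapped, and the log2FC was 0.07, with a 95% interval of -0.20 to 0.35 (adjusted p = 0.764, edgeR). In AJcl it was at 169, 188 and 144 CPM at baseline and 195 and 181 CPM at Day 5, with 184 CPM in A-ADR1 (log2FC 0.18, 95% interval -0.12 to 0.49, adjusted p = 0.752, edgeR). Its 12 libraries spanned 144 to 199 CPM, the narrowest relative range of the 6 genes.

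Tcf21, which is expressed in podocytes and in kidney stroma, was at 272, 293 and 313 CPM in ByJcl at baseline and at 192, 117 and 140 CPM at Day 5. Its log2FC was -0.93 ± 0.19 (SE; adjusted p = 0.0138, edgeR), and the adjusted p was 0.0584 without ByJcl Day 5 replicate 2. The AJcl levels were 298, 285 and 241 CPM at baseline and 239 and 157 CPM at Day 5, with 224 CPM in A-ADR1. All 3 AJcl Day 5 libraries were below the baseline libraries, replicate 2 only just so. Without A-ADR1, 12.3% of all genes had AJcl Day 5 libraries that all lay below baseline. The Tcf21 log2FC of -0.46 ± 0.22 in AJcl was not called (adjusted p = 0.535, edgeR).

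Dach1 was at 294, 207 and 246 CPM in ByJcl at baseline and at 118, 92.6 and 94.7 CPM at Day 5. Its log2FC was -1.26 ± 0.20 (SE), with the smallest adjusted p of the 6, 0.00409 (edgeR). In AJcl, Dach1 was at 234, 231 and 192 CPM at baseline and 228 and 134 CPM at Day 5, with 157 CPM in A-ADR1. The AJcl ranges overlapped, and the log2FC of -0.26 ± 0.22 was not called (adjusted p = 0.779, edgeR).

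None of the 6 genes was called in AJcl, where 0.312% of all genes tested were called in either direction, against 10.6% in ByJcl. The 2 AJcl Day 5 libraries differed from each other. Replicate 2 was higher than replicate 3 for all 6 genes, and its structural gene sum was 18139 CPM against 13871. Without replicate 3 the AJcl log2FC were 0.11 for Wt1, 0.00 for Lmx1b and 0.03 for Dach1, and without replicate 2 they were -0.70, -0.55 and -0.67. Foxc2 and Tcf21 stayed below 0 without either, at -0.46 and -0.23 without replicate 3 and at -1.03 and -0.77 without replicate 2. Over the mean of both substrains, 5 genes were called lower at Day 5, where 4.15% of all genes were called lower and 10.4% in either direction: Foxc2 (log2FC -1.01 ± 0.18, adjusted p = 0.00527), Dach1 (-0.76 ± 0.15, 0.00988), Tcf21 (-0.70 ± 0.15, 0.0130), Wt1 (-0.66 ± 0.15, 0.0183) and Lmx1b (-0.57 ± 0.14, 0.0283; all edgeR, SE). Foxc1 was at 0.13 ± 0.09 (adjusted p = 0.451, edgeR). These calls rested partly on AJcl Day 5 replicate 3, without which Foxc2 was the only 1 of the 5 still called.

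**Figure D2:**
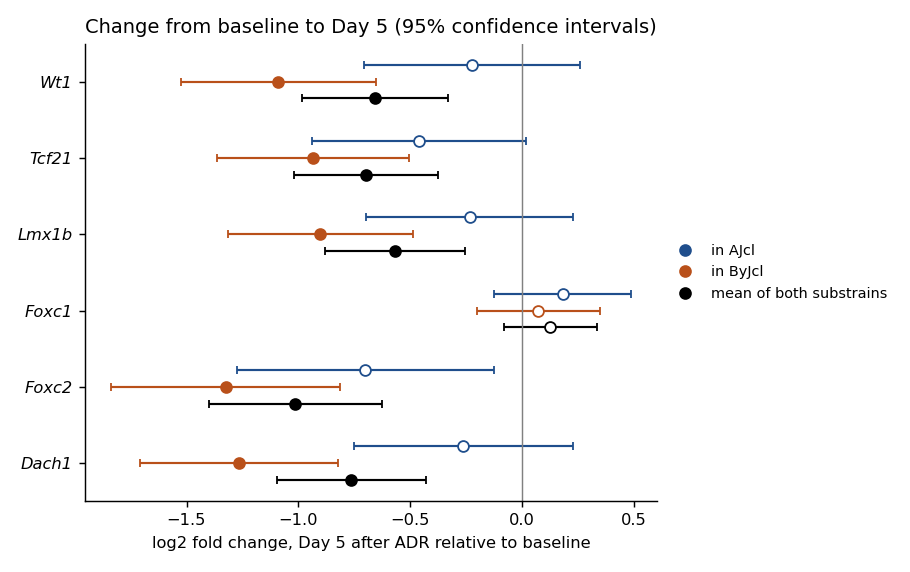
Log2 fold change of each gene at Day 5 after ADR relative to baseline, in AJcl, in ByJcl and as the mean of both substrains, with 95% confidence intervals. Filled points have an adjusted p below 0.05 (edgeR). In ByJcl the estimates of 5 genes lie between -1.32 and -0.90, and all Foxc1 intervals include 0.

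The substrain by ADR interaction tested whether the change in ByJcl differed from that in AJcl. No gene of the 6 was called, and none of the 17002 was (0% called by edgeR, with 1363 genes at an unadjusted p below 0.05 and 22 genes, or 0.129%, called by DESeq2, none of them among the 6). The ByJcl change was lower than the AJcl change by 1.00 ± 0.30 on the log2 scale for Dach1 (SE; adjusted p = 0.620, edgeR). The interaction was -0.87 ± 0.29 for Wt1 and -0.67 ± 0.28 for Lmx1b (both adjusted p = 0.620, edgeR). It was -0.62 for Foxc2, -0.47 for Tcf21 and -0.11 for Foxc1 (adjusted p from 0.661 to 0.903, edgeR). The 95% intervals were wide, from -1.65 to -0.35 for Dach1 and from -1.11 to 0.16 for Tcf21. Without AJcl Day 5 replicate 2 the interaction was -0.58 for Dach1, -0.38 for Wt1, -0.34 for Lmx1b, -0.29 for Foxc2 and -0.16 for Tcf21, and without replicate 3 it was -1.29 for Dach1, -1.19 for Wt1 and -0.90 for Lmx1b, none of them called. With libraries scaled on podocyte structural genes, a setting described below, it was -0.41 for Dach1, -0.30 for Wt1, -0.13 for Lmx1b and -0.08 for Foxc2. It was 0.08 for Tcf21 and 0.45 for Foxc1, whose signs turned. This scaling moved the median interaction of all genes from 0.003 to 0.56, and all 6 values lay below that median. With none of the 6 genes called, a difference in response between the substrains was not established for any of them.

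The next comparison asked whether the substrains differed at either time. At baseline all 6 genes overlapped between the substrains and none was called, where 0.159% of all genes were called. Their log2FC for ByJcl relative to AJcl were 0.34 for Lmx1b, 0.21 for Dach1, 0.15 for Wt1, and 0.09 to 0.11 for the other 3 (adjusted p from 0.627 to 0.918, edgeR). The baseline interval of Wt1 was -0.28 to 0.58 and that of Lmx1b -0.08 to 0.75. At Day 5, none was called by edgeR, where 0.165% of all genes were called. Every AJcl library, A-ADR1 included, was above every ByJcl library for Dach1 and Wt1, a pattern in which ByJcl was lower for 17.2% of all genes over the 11 libraries. For Dach1 the difference was -0.79 ± 0.22 on the log2 scale (SE), not called by edgeR (adjusted p = 0.168) and called by DESeq2 (adjusted p = 0.0272), which called 3.15% of all genes. The study's own DESeq2 test, which covered more genes, reported Wt1 as marginally significant and lower in ByJcl. For Wt1 the difference found here was -0.71 ± 0.22 (SE), with an adjusted p of 0.201 by edgeR and 0.0508 by DESeq2. Both values turned on the AJcl Day 5 libraries: without replicate 2 they were -0.39 for Dach1 and -0.25 for Wt1, and without replicate 3 they were -1.099 (adjusted p = 0.0447) and -1.06 (adjusted p = 0.0333), both called by edgeR. The other log2FC at Day 5 were -0.53 for Foxc2, -0.36 for Tcf21, -0.33 for Lmx1b and close to 0 for Foxc1, whose 95% interval ran from -0.31 to 0.31. Leaving out 1 library moved these values, from -0.83 to -0.21 for Foxc2 and from -0.62 to -0.06 for Tcf21, lowest without ByJcl Day 5 replicate 1 and highest without AJcl Day 5 replicate 2. For Lmx1b the range was -0.58 without AJcl Day 5 replicate 3 to -0.02 without replicate 2. The log2FC of Lmx1b was -0.10 with all 12 libraries and 0.21 with A-ADR1 in place of AJcl Day 5 replicate 2. At Day 5 all 8 proximal tubule markers had log2FC below 0 in ByJcl relative to AJcl (median -0.97) and all 6 immune markers had log2FC above 0 (median 1.28), none of them called by edgeR. Their summed levels were 494 to 2027 CPM in ByJcl and 2029 to 2781 CPM in AJcl for the tubule, and 56.5 to 106 and 13.2 to 45.9 CPM for immune cells. The same markers lay in the same directions at baseline (medians -0.82 and 0.92), and their part in the substrain differences was not tested.

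Foxc2 and Foxc1 can also be compared within each library, where library scaling cancels. This ratio was examined after the values of both genes had been seen. The baseline libraries held 1.09, 1.13 and 1.07 Foxc2 counts per Foxc1 count in AJcl and 1.14, 0.991 and 1.11 in ByJcl. At Day 5 the ratios were 0.701 and 0.489 in AJcl, with 0.590 in A-ADR1, and 0.562, 0.303 and 0.380 in ByJcl. All Day 5 ratios, A-ADR1 included, lay below all baseline ratios. Over both substrains the Day 5 ratio was 0.446 of baseline, a log2 difference of -1.17, which was -0.91 in AJcl and -1.43 in ByJcl. The log2 difference of ByJcl relative to AJcl was -0.02 at baseline and -0.54 at Day 5, and the ratios of the substrains overlapped at both times. Since the pair of genes was chosen for its values, these differences are a description.

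**Figure D3:**
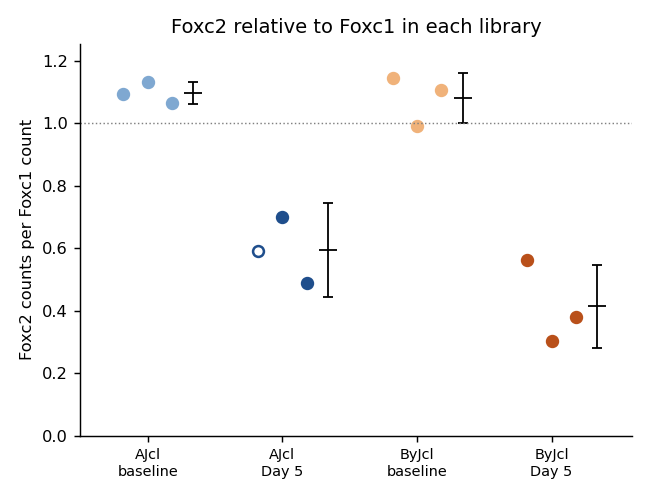
Foxc2 counts per Foxc1 count in each library (points), by substrain and time, with group mean and SD (n = 3, or 2 for AJcl Day 5) as black bars, the open circle being A-ADR1. The baseline ratios lie between 0.991 and 1.14 and the Day 5 ratios between 0.303 and 0.701.

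The transcription factors were then set against the 14 podocyte genes called structural here, since their summed level moved in the same direction. The list also holds Cdkn1c, which encodes a cell cycle inhibitor. Its mean went from 1334 to 2629 CPM in ByJcl and from 1087 to 2074 CPM in AJcl, so the sum fell less than that of the other genes. A sum without Cdkn1c was not computed. The sum of all 14 was 20646 to 22460 CPM in ByJcl at baseline and 11504 to 14459 CPM at Day 5, and 15796 to 21995 and 13871 to 18139 CPM in AJcl. Podxl, which encodes the sialomucin podocalyxin of the podocyte surface, made up 34.4% to 39.2% of the sum on average in the 4 groups. Counts of Wt1 per 100 structural counts went from 2.30 ± 0.06 to 1.81 ± 0.02 in ByJcl (SD, n = 3). For Foxc2 this share went from 0.890% ± 0.10 to 0.589% ± 0.09, for Dach1 from 1.15% ± 0.15 to 0.804% ± 0.01, for Tcf21 from 1.36% ± 0.13 to 1.17% ± 0.16 and for Lmx1b from 1.03% ± 0.06 to 0.917% ± 0.05. Foxc1 went the other way, from 0.822% ± 0.04 to 1.47% ± 0.25. In AJcl the mean shares at baseline (n = 3) and Day 5 (n = 2) were 2.44% and 2.36% for Wt1 (SD 0.14 and 0.55), 0.994% and 0.694% for Foxc2, 1.19% and 1.11% for Dach1, 1.501% and 1.22% for Tcf21, 0.947% and 0.928% for Lmx1b, and 0.906% and 1.19% for Foxc1. With A-ADR1 (n = 3) the Day 5 means were 2.47%, 0.778%, 1.196%, 1.47%, 0.858% and 1.33% in the same order. Wt1 and Dach1 were then not below baseline.

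When libraries were scaled on the structural sum in place of TMM, the ByJcl falls of Foxc2 (log2FC -0.60, adjusted p = 0.0140) and Dach1 (-0.51, 0.0293) were still called, Foxc1 was called higher (0.84, 0.00276), and Wt1 (-0.35, 0.0834), Tcf21 (-0.21, 0.334) and Lmx1b (-0.16, 0.368) were not called (all edgeR). This scaling moved the median log2FC of all genes from 0.01 to 0.76, so that 60.3% of genes were called higher and 0.906% lower. Foxc1 lay close to the median of all genes under both scalings. In AJcl none of the 6 was called with this scaling, where 0.553% of all genes were called, with log2FC of -0.52 for Foxc2 (adjusted p = 0.407) and -0.10 for Dach1 (adjusted p = 0.933, both edgeR). Over the mean of substrains, where 49.4% of all genes were called higher and 1.05% lower, Foxc1 was called higher (0.61, adjusted p = 0.00463), Foxc2 was called lower (-0.56, adjusted p = 0.00800) and the other 4 were not called, Dach1 among them (-0.31, adjusted p = 0.0804, all edgeR).

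**Figure D4:**
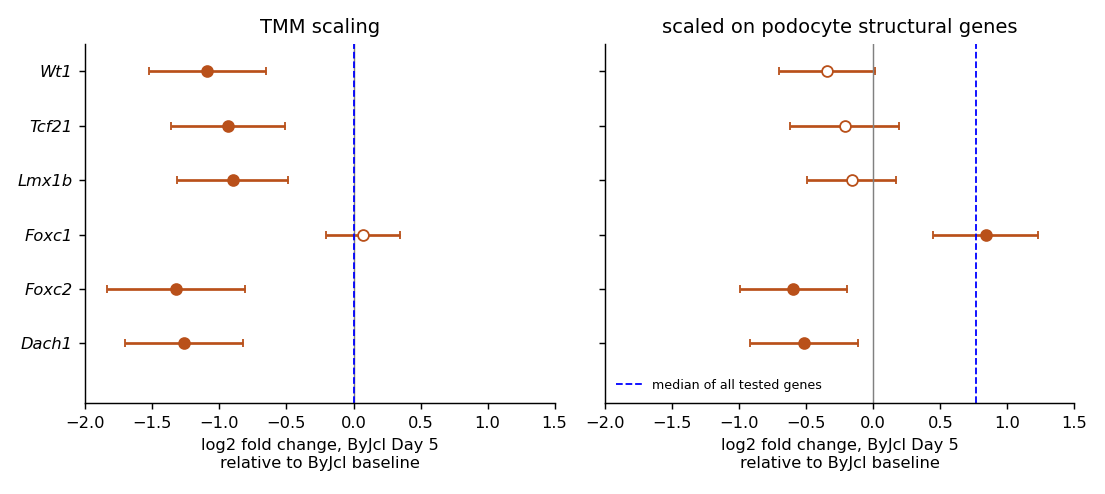
Log2 fold change in ByJcl at Day 5 relative to baseline with TMM scaling (left) and with libraries scaled on the summed counts of 14 podocyte structural genes (right), with 95% confidence intervals. Filled points have an adjusted p below 0.05 (edgeR) and the dashed line is the median of all tested genes, 0.01 and 0.76. Foxc1 stays near that median, and Foxc2 and Dach1 stay called below 0 in both. The 14 genes include Cdkn1c, which rose in ByJcl.

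Genes on which these factors act, and their partners, were described from lists chosen with earlier results of these data known. The counts below therefore describe these lists and do not test them. By Day 5 in ByJcl, 8 of the 14 structural genes were called lower and 1 higher, where 4.83% of all genes were called lower, and their median log2FC was -0.94, against 0.01 over all genes. Among them were Nphs1 (nephrin, log2FC -1.28) and Podxl (-0.92), and the lowest adjusted p belonged to Magi2, a scaffold of the slit diaphragm (-2.38). Thsd7a (-2.67), an antigen of membranous nephropathy, Synpo (-1.54), an actin-binding protein of foot processes, and Plce1 (-1.36), a phospholipase, fell too. The 1 that rose was Cdkn1c (log2FC 1.01), which encodes the cell cycle inhibitor p57. Of 9 genes known as WT1 or LMX1B targets, 7 were called lower and none higher, against the same 4.83% of all genes, with a median log2FC of -0.92. Of these, 4 are also on the structural list, and the other called targets were Cd2ap (-0.94), a slit diaphragm adaptor, the basement membrane collagen gene Col4a3 (-0.77) and the sulfatase gene Sulf1 (-0.74). Col4a4 (-0.55, adjusted p = 0.0785) and Nes (0.43, adjusted p = 0.0837) were not called (edgeR). In AJcl, where 0.312% of all genes were called in either direction, none of the structural or target genes was called, with medians of -0.28 and -0.31.

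For partners and relatives of the factors, the share of all genes called in ByJcl in either direction, 10.6%, is the background. Of 11 dimer partners and cofactors, Basp1, a corepressor that binds WT1, rose in ByJcl (log2FC 0.69, adjusted p = 0.0368), and Eya1, a coactivator and phosphatase that works with DACH proteins, fell (-0.83, adjusted p = 0.0358; both edgeR). The median of the 11 was -0.09. Tcf3, Tcf4 and Tcf12, the E-proteins that can pair with TCF21, had log2FC of -0.09, -0.23 and 0.22 and were not called. Of 9 close relatives and genomic neighbours, 8 were tested, and Foxd1, a stromal forkhead gene, was called lower in ByJcl (-0.43, adjusted p = 0.0495, edgeR). Of 9 other transcription factors studied in podocytes, Klf6 (0.97) and Klf4 (0.69) rose and Zhx2 (-0.52) and Nr3c1, the glucocorticoid receptor gene (-0.49), fell in ByJcl. In AJcl, where 0.312% of all genes were called, no gene of these 3 lists was called. In either comparison between the substrains edgeR called no gene of any list. It called 0.159% of all genes there at baseline and 0.165% at Day 5.

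Across the 11 libraries Wt1, Tcf21, Lmx1b, Foxc2 and Dach1 varied together, with Pearson r of log2 CPM between 0.878 for Tcf21 with Lmx1b and 0.967 for Wt1 with Dach1. Foxc1 had r between -0.28 and -0.07 with the other 5. These values describe libraries that fall into shared groups and whose podocyte structural RNA varied as well. Of 13634 genes with a mean of at least 1 CPM, the 2 most like each factor were Tmem150c and Septin11 for Wt1 (r = 0.987 and 0.985), Igsf8 and BB014433 for Tcf21 (0.984 and 0.983) and Coro2b and Arhgef16 for Lmx1b (0.982 and 0.977). They were Cldn5 and Enpep for Foxc2 (both 0.989) and Cyp27a1 and Rarres1 for Dach1 (0.993 and 0.984). For Foxc1 the nearest genes were less alike, Abcc8 at 0.924 and Tmem209 at 0.881.

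Markers of other glomerular and kidney cells give the setting of these changes. The summed level of 8 endothelial markers was 8984 to 10898 CPM in ByJcl at baseline and 5738 to 8543 CPM at Day 5, with Ehd3 (log2FC -0.81) and Flt1 (-0.54) called lower. Of the 8 endothelial markers, 5 had log2FC below 0 (median -0.22), and Pecam1 (0.29), Cdh5 (0.13) and Eng (0.04) lay above 0, not called. For 6 mesangial markers the sums were 2434 to 2898 and 2568 to 3437 CPM, with Serpine2 called higher (0.87). The sums of 8 proximal tubule markers, 550 to 3309 and 494 to 2027 CPM, overlapped and none was called. The sums of 5 fibroblast and stromal markers were 570 to 629 and 149 to 232 CPM, where Col1a2 alone was called lower (log2FC -2.16). Most of the baseline sum was Col1a2, whose mean went from 463 to 102 CPM. The means of Pdgfra went from 124 to 85.5, of Col1a1 from 15.7 to 13.6 and of Dcn from 2.94 to 2.42 CPM. In parietal epithelium the 6 marker sums were 96.2 to 114 and 86.7 to 146 CPM, and in immune cells 49.8 to 89.6 and 56.5 to 106 CPM, with Cldn1 (0.77) and Cd68 (1.17) called higher. In each of the mesangial, parietal and immune lists, 3 of the 6 markers had log2FC below 0. The median log2FC in ByJcl were 0.02 for the mesangial, -0.51 for the tubule, -0.38 for the fibroblast, -0.11 for the parietal and 0.15 for the immune markers. No marker of these 6 lists was at 0 in every library of a group. The part of cell composition in the changes of the 6 transcription factors was not tested.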

How the data were processed

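RNA of bead-captured glomeruli was sequenced as strand-specific poly(A) libraries. Per the paper's methods and the submitters' notes, reads were checked with FastQC, trimmed with Trimmomatic, aligned to GRCm39 with STAR and counted per gene with featureCounts. The annotation and strand setting of the counting are not given in the sources used here. The deposited values are raw counts of 26264 gene symbols per library, made by the authors without normalization, with baseline and Day 5 in separate tables, and no replicates were pooled. Most low counts were even (77.1% to 82.9% of counts from 1 to 49), so mates may have been counted singly, and the tests were repeated on halved counts. Replicates were compared pairwise and no library was a copy of another.

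Genes were filtered with filterByExpr over the 4 groups, leaving 17002, and scaled with TMM. The edgeR 4.0.16 quasi-likelihood test (R 4.3.3) was fitted with 1 coefficient per group on 11 libraries without A-ADR1, with 6 contrasts, and p-values were adjusted over all tested genes. The study used DESeq2, which was run as an alternative (1.42.0). Depth was 42198416 to 54687045 counts per library, and groups held 2 or 3 libraries. Lengths and positions came from GENCODE M39. The test was checked on simulated data.

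The 6 members and all lists were chosen with earlier results of these data known. All members are described, and other genes are named as Nphs1, Podxl and at most 4 called genes per list with the smallest adjusted p, uncalled genes being named only as examples with their values. The rule for like genes takes the 3 highest correlations, of which the nearest 2 are given. Cdkn1c, the E-proteins, Col4a3, Sulf1, Col4a4, Nes and the called cell type markers were named after their values were seen.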

Additional observations from a re-analysis of the deposited data

How the results depend on the processing

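AJcl had 2 libraries at Day 5, and where 1 of these was left out, the lone library was assumed to vary like the other groups. Of 780 values of the 6 genes under the alternatives, 732 kept their direction and side of the threshold, 21 were no longer called, 6 became called and 21 changed sign.

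The number of genes called with ByJcl against AJcl at baseline was 27, and it was 101 with DESeq2, 17 with scaling on podocyte structural genes, 15 with the compared groups alone and 15 with A-ADR1 in place of AJcl Day 5 replicate 3. Between the substrains at Day 5 it was 28, and it was 72 with all 12 libraries, 535 with DESeq2, which called 1 of the 6 genes (Dach1), 56 with no filter on low counts, 6 with the compared groups alone, 15 with A-ADR1 in place of AJcl Day 5 replicate 2 and 793 with A-ADR1 in place of replicate 3, where 1 of the 6 (Dach1) was called. In AJcl at Day 5 it was 53, and it was 301 with DESeq2, 99 with no filter, 94 with podocyte scaling, 33 with the compared groups alone, 148 with A-ADR1 in place of replicate 2 and 22 with it in place of replicate 3. In ByJcl at Day 5 it was 1800, and it was 1197 with 12 libraries and 10409 with podocyte scaling, where 3 of the 6 genes were called. Over the mean of substrains it was 1774, against 8571 with podocyte scaling, where 2 of the 6 were called, and 1040 with A-ADR1 in place of replicate 3. For the interaction it was 0, against 22 with DESeq2. Podocyte scaling moves the median of all genes by construction, and the cause of the other shifts was not tested.

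The labels do not say whether same-numbered replicates belong together. Deviations from the group means of the 15 same-numbered pairs correlated between -0.24 and 0.37, with 4 pairs over 0.1. Pairs with different numbers were not compared, so these values cannot decide whether the numbers pair the libraries. The replicate block lowered the AJcl count from 53 to 26, gave 1592 in ByJcl and 1469 over the mean of substrains, and changed no call of the 6 genes.

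Leaving out 1 library gave 12 to 29 genes between substrains at baseline, 9 to 218 at Day 5 (with 0 to 2 of the 6 genes, Wt1 and Dach1 without AJcl Day 5 replicate 3), 11 to 180 in AJcl, 680 to 2056 in ByJcl (3 to 5 of the 6), 531 to 1816 over the mean (1 to 5 of the 6) and 0 to 5 for the interaction. The low ByJcl count came without ByJcl Day 5 replicate 2, which ended the calls of Tcf21 and Lmx1b, and the low mean count without AJcl Day 5 replicate 3.

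No value that changed sign was called with or without the change of setting. With podocyte scaling the baseline log2FC between substrains were -0.080 for Wt1, -0.15 for Tcf21, -0.14 for Foxc1, -0.16 for Foxc2 and -0.055 for Dach1, against 0.09 to 0.21 with TMM. The interaction was 0.082 for Tcf21 and 0.45 for Foxc1, against -0.47 and -0.11. This scaling moved the median of all genes from 0.008 to -0.24 at baseline and from 0.003 to 0.56 for the interaction. These genes stayed on the same side of the median under both scalings. The Day 5 difference of Foxc1 between substrains was 0.0081 with 12 libraries, 0.0073 with DESeq2, 0.0073 with RLE size factors, 0.0022 with a minimum of 1 CPM in 2 libraries, 0.31 with podocyte scaling and 0.011 with A-ADR1 in place of AJcl replicate 2, where that of Lmx1b was 0.21, against -0.33. Leaving out 1 library gave -0.061 to 0.056 for this Foxc1 difference, -0.047 to 0.23 for Foxc2 between substrains at baseline, and in AJcl at Day 5 -0.70 to 0.11 for Wt1, -0.55 to 0.0049 for Lmx1b and -0.67 to 0.035 for Dach1.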
